A study of Mus musculus with 8 samples.

Results

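A set of 10 cytokine genes of the interleukin 1, interleukin 6 and interleukin 7 types were followed across 8 microarrays of an edited mouse thymic epithelial line. They are Il1a, Il1b, Il1rn, Il33 and Il18 of the interleukin 1 type, Il6, Il11 and Lif of the interleukin 6 type, and Il7 and Tslp of the interleukin 7 type. Every probe whose transcript accession belongs to one of the 10 genes was taken, which gave 14 probes, out of 22908 genes with a symbol on the array. The genes were put forward with their processed signals in the 3 groups already in view, so their differences between groups are given below as a description and without a test. The cells were TEC71, an immortalized line from mouse medullary thymic epithelial cells. The control cells had been transfected with Cas9n, a Cas9 that nicks one strand, and one gRNA, and were hybridized on 3 arrays. The edited cells were the Gtf2i T1211A knock-in clone #1 on 3 arrays and clone #3 on 2 arrays, here called clone 1 and clone 3. Each edited group is therefore 1 clone, and nothing in the labels says whether arrays of a group came from separate cultures, so the spread between arrays may be technical. All cells were grown as a monolayer under one protocol, with no treatment named.

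The interleukin 1 family signals through receptors with a Toll/interleukin 1 domain, the adaptor MyD88 and kinases that lead to NF-kappa B and AP-1. Interleukin 1 alpha is made by epithelial cells and is active as a precursor, whereas interleukin 18 is cut by caspase 1 before it acts. Members of the interleukin 6 family share the chain gp130, encoded by Il6st, and signal through JAK kinases and STAT3. In the thymus, epithelial interleukin 7 supports the growth of immature T cells, and thymic stromal lymphopoietin (TSLP) is a related epithelial cytokine that acts on dendritic cells and lymphocytes.

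Promoter sequence is shown first for the genes on which the levels below turn, together with that of Il6, whose promoter is a textbook case of inducible elements. RefSeq windows of GRCm38.p6 ran from 250 bases before to 50 bases after a gene's start. None was used for Il7 or Tslp, and windows on the chromosome that holds Tslp were left out. Of the 10 genes, 8 had windows in use, 12 in all. Each was searched on both strands for the AP-1 motif TGANTCA, the C/EBP motif TTGCNNAA, the STAT motif TTCNNNGAA and the kappa B motif. Capitals mark the matches. The windows are those of Il1a at chr2:129309923-129310222 (minus strand), Il18 at chr9:50554450-50554749 (plus strand), Il11 at chr7:4778092-4778391 (minus strand) and Il6 at chr5:30012864-30013163 (plus strand).
Il1a: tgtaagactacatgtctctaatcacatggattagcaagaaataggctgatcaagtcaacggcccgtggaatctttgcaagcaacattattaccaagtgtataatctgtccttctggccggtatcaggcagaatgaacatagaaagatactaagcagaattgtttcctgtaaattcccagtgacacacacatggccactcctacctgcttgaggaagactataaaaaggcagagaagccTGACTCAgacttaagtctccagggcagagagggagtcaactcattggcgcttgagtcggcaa
Il18: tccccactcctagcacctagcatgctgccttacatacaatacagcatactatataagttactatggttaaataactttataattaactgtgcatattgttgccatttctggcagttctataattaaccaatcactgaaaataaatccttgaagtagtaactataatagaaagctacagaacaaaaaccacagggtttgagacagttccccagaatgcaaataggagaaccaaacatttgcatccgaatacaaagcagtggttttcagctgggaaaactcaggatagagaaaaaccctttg
Il11: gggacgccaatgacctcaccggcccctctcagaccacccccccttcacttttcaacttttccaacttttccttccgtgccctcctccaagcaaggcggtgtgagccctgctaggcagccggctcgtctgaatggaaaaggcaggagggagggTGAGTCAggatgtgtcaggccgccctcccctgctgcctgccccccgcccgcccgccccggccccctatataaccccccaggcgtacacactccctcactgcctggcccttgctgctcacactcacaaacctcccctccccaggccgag
Il6: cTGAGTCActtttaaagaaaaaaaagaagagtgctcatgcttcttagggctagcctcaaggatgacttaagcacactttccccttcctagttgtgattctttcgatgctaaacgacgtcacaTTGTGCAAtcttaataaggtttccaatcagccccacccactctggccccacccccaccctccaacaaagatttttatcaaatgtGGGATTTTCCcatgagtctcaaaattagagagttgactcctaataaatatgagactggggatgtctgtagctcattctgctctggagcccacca

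The Il1a window held an AP-1 match 12 bases before the start, and the Il11 window shown held one 98 bases before it. The Il18 window held none of the 4 motifs. The Il6 window held an AP-1 match, a C/EBP match and a kappa B match, the last 44 bases before the start. Among the windows not shown, that of Lif held a kappa B and an AP-1 match, 1 of the 3 Il1rn windows held an AP-1 match, 1 of the 2 Il33 windows held a C/EBP match, and the second Il11 window and the Il1b window held none. AP-1 matches were in 5 of the 12 windows, C/EBP matches in 2, kappa B matches in 2 and STAT matches in 0. Over all 32851 promoter windows of the same length, 7.81% held the AP-1 motif, 10.8% the C/EBP motif, 8.46% the kappa B motif and 8.30% the STAT motif. A match describes letters in the window and does not show that a factor binds there.

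Gtf2i, the edited gene, was above background on all 8 arrays and fell by 0.46 (SE 0.10) on the log2 scale in clone 1 and by 0.59 (SE 0.11) in clone 3, with limma adjusted p-values of 0.0075 and 0.0042. These values are from the brightest of the 3 probes of Gtf2i, and its other probes are not reported here. Neither is a fit for Gtf2i with the array's row on the slide as a block. An array probe reads the amount of transcript and does not check a point mutation. The share of probes above background ran from 55.3% to 59.3% between arrays, with no saturated spot. Of 10 thymic epithelial markers, 9 were above background on every array, and Psmb11, which marks the thymic cortex, on none. Of 7 medullary markers, 4 (Cd80, Tnfrsf11a, Cldn3 and Cldn4) were above background on every array. Fezf2 and Ccl21a, which define medullary subsets, were on none, and Aire was on 1 of 3 control, 2 of 3 clone 1 and 0 of 2 clone 3 arrays. Of 8 leukocyte markers, 5 were above background on every array, while Adgre1 and Lyz2 were on none and Ptprc, which defines leukocytes, on 1 control array. The summed linear signal of the 8 leukocyte markers, in multiples of the array's 75th percentile, ran from 8.79 to 12.4 in the control, from 10.7 to 14.6 in clone 1 and from 12.1 to 12.6 in clone 3. That of the 10 thymic epithelial markers ran from 363 to 476, from 315 to 362 and from 337 to 374, and that of 7 fibroblast markers from 0.95 to 1.20, from 0.45 to 0.61 and from 0.46 to 0.53. In both clones Epcam, Krt5, Cd80 and Pdgfra were called lower by limma (adjusted p under 0.05), and Prss16, Cldn4 and Cd68 higher. With the array's row on the slide as a block in limma, Prss16 lost its call in both clones (adjusted p = 0.063 and 0.26). Cd68 lost it in clone 3 (adjusted p = 0.12). The part of these cell type markers in the cytokine levels was not tested.

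Of the 10 cytokine genes, 6 had a signal above background in all arrays of 1 group or more: Il1a, Il18, Il11, Lif, Il7 and Tslp. Each of these 6 rests on 1 probe with 1 spot per array, so no second probe checks its difference. Levels are given as log2 of the processed signal over the array's own 75th percentile, and no level of one probe is set against that of another. In both clones Il18, Il11 and Tslp lay above the control, and Il1a and Il7 below it. Lif lay below the control in clone 3 and overlapped it in clone 1. Because the genes were chosen on these comparisons, no call and no p-value is given for them. Some of the 6 were bright enough in part of the groups only, so they are not a sample of all 10. Over all 25353 genes and transcripts tested, limma called 14.7% higher and 16.5% lower in clone 1, and 13.3% and 17.0% in clone 3. How many of them lie wholly apart from the control was not counted. The separation of these cytokines is therefore not read as particular to them.

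Il1a, which encodes interleukin 1 alpha, was bright in the control and not well above background in either clone. Its processed signals were 1049, 1631 and 1050 on the 3 control arrays. They were 4.63, 6.76 and 3.68 on the clone 1 arrays and 2.29 and 2.12 on the clone 3 arrays. On the log2 scale the control level was 1.99 ± 0.12 (SD, n = 3), and every knock-in array lay below every control array. Since all 5 knock-in arrays gave only a bound, the signal was at least 121-fold lower in clone 1 and at least 116-fold lower in clone 3. These bounds set the control mean against the lowest signal called well above background on each knock-in array, or the probe's own signal where that was higher. The measured means were -6.03 ± 0.63 for clone 1 (SD, n = 3) and -7.10 ± 0.04 for clone 3 (SD, n = 2), and at background their order has no meaning. In these bulk samples, fewer cells that express a gene and less RNA per cell cannot be told apart.

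**Figure D1:**
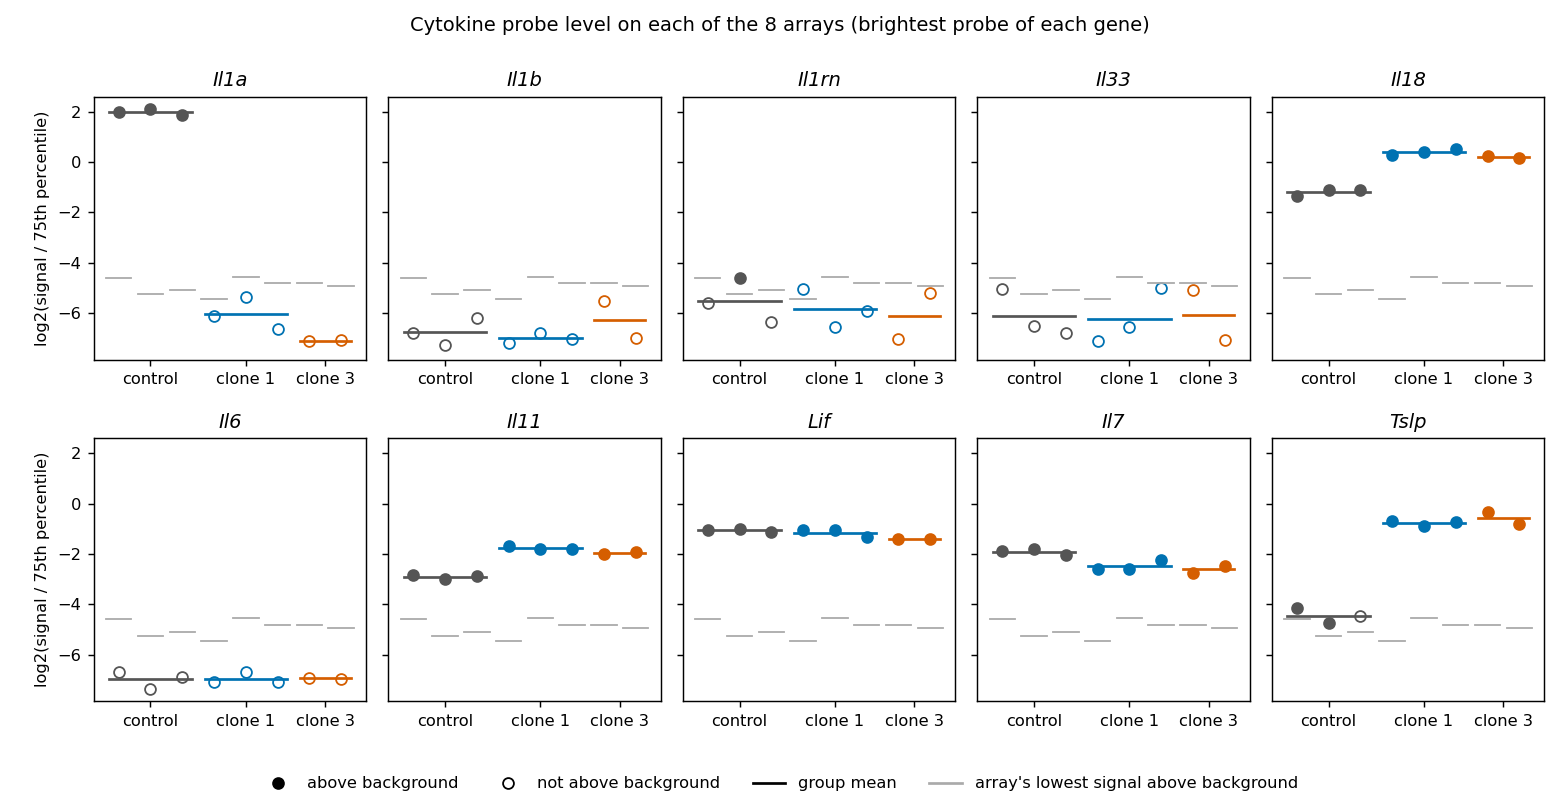
Level of each of the 10 cytokine genes on each array, as log2 of the processed signal relative to the array's 75th percentile (vertical axis), in the control (grey), clone 1 (blue) and clone 3 (orange). Filled points were well above background by the flag of the Feature Extraction software, and open points were not. Coloured lines are group means, and grey ticks show the lowest signal called above background on that array. Il1a is filled on the 3 control arrays alone, Il18, Il11 and Tslp lie higher on all 5 knock-in arrays, and Il1b, Il33 and Il6 are open throughout.

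Il18, which encodes interleukin 18, had processed signals of 104, 174 and 132 in the control, 390, 362 and 526 in clone 1, and 377 and 318 in clone 3. Its log2 level was -1.20 ± 0.14 in the control (SD, n = 3), 0.40 ± 0.12 on the clone 1 arrays (SD, n = 3) and 0.20 ± 0.05 on the clone 3 arrays (SD, n = 2). All 5 knock-in arrays were above all 3 controls, and both clone 3 arrays lay below the 3 clone 1 arrays. The difference from control was 1.59 (SE 0.12) in clone 1, or 3.02-fold, and 1.40 (SE 0.13) in clone 3, or 2.63-fold.

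The other interleukin 1 type genes were at background. Il1b, which encodes interleukin 1 beta, has 2 probes, with log2 levels from -7.21 to -6.32 and from -7.26 to -5.53 over the 8 arrays. Il33, an alarmin kept in the nucleus, has 2 probes with levels from -7.35 to -6.70 and from -7.12 to -5.01. None of these 4 probes was well above background on any array. Il1rn encodes the antagonist that occupies the interleukin 1 receptor without signalling. Its dimmer probe was above background on no array, and its brighter probe on 1 control array, at -4.63. At this brightness a difference between the groups was not detectable for these 3 genes.

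Il11 encodes an interleukin 6 type cytokine that acts on stromal and epithelial cells. Its processed signals were 38.0, 46.8 and 38.8 in the control, 99.7, 79.3 and 103 in clone 1, and 79.6 and 74.7 in clone 3. The log2 level was -2.90 ± 0.10 in the control (SD, n = 3), -1.77 ± 0.08 on the clone 1 arrays (SD, n = 3) and -1.97 ± 0.06 on the clone 3 arrays (SD, n = 2). The 3 groups did not overlap, with clone 1 highest, clone 3 next and the control lowest. The difference from control was 1.13 (SE 0.10) in clone 1 and 0.94 (SE 0.12) in clone 3, or 2.19-fold and 1.92-fold.

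Lif encodes leukaemia inhibitory factor, also of the interleukin 6 type. Its processed signals were 129, 186 and 131 in the control, 152, 134 and 144 in clone 1, and 121 and 106 in clone 3. On the log2 scale, clone 1 spanned -1.34 to -1.06 and overlapped the control, which spanned -1.12 to -1.01. Both clone 3 arrays, at -1.41 and -1.42, lay below all 6 other arrays. The difference from control was -0.09 (SE 0.11) in clone 1 and -0.35 (SE 0.13) in clone 3. Il6 has 2 probes that were above background on no array, with levels from -7.43 to -6.73 and from -7.38 to -6.70.

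Il7, the T cell growth factor of the thymic epithelium, had processed signals of 73.7, 107 and 69.5 in the control, 52.6, 46.1 and 77.8 in clone 1, and 48.0 and 50.7 in clone 3. After scaling, its log2 level was -1.91 ± 0.12 in the control (SD, n = 3), -2.48 ± 0.21 on the clone 1 arrays (SD, n = 3) and -2.61 ± 0.18 on the clone 3 arrays (SD, n = 2). The clones overlapped each other and both lay below the control, although the unscaled signal of the third clone 1 array was above those of 2 control arrays. The difference from control was -0.57 (SE 0.14) in clone 1 and -0.70 (SE 0.16) in clone 3.

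Tslp, which encodes TSLP, was close to background in the control and clearly above it in both clones. Its processed signals were 15.1, 14.2 and 12.9 in the control, where the first and second arrays were well above background and the third was not. They were 196, 151 and 221 in clone 1 and 254 and 160 in clone 3. The log2 level was -4.45 ± 0.29 in the control (SD, n = 3), -0.77 ± 0.10 on the clone 1 arrays (SD, n = 3) and -0.58 ± 0.35 on the clone 3 arrays (SD, n = 2). Both clones lay above the control on every array and overlapped each other. The difference from control was 3.68 (SE 0.18) in clone 1 and 3.87 (SE 0.20) in clone 3, or 12.8-fold and 14.6-fold.

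**Figure D2:**
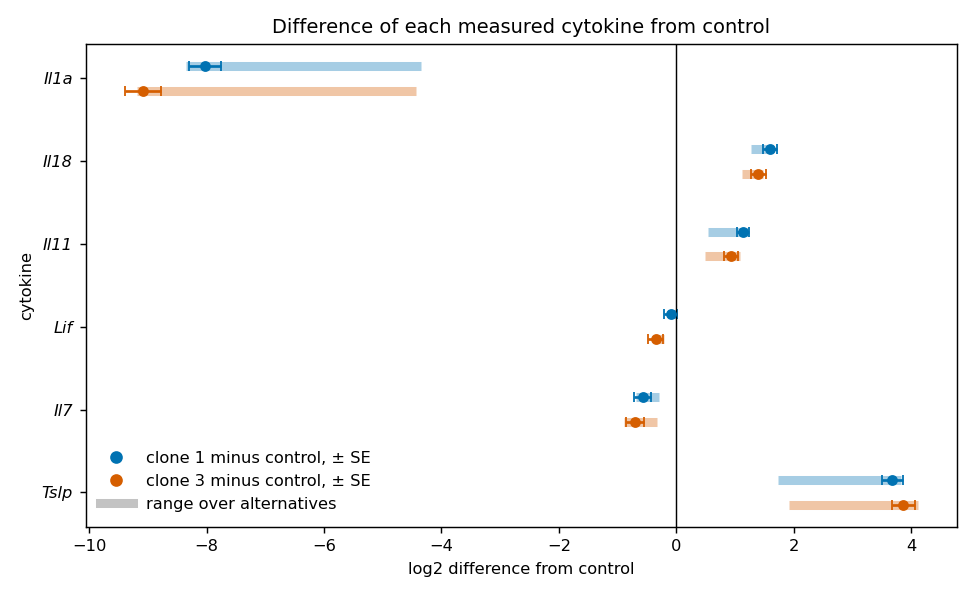
Log2 difference from the control (horizontal axis) of the 6 cytokine genes that could be measured, for clone 1 (blue) and clone 3 (orange). Points are the fitted differences with SE, and pale bars span the values under all alternative settings. Il1a lies far to the left at -8.02 and -9.08, fitted values that rest on background signals, Il7 and Lif lie left of 0, and Il11, Il18 and Tslp lie to the right.

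The 3 controls and the first clone 1 array occupy row 1 of the slide, and the other arrays row 2, so clone 3 shares no row with the control. Within row 1, the clone 1 array differed from the control mean by -8.09 for Il1a, 1.49 for Il18, 1.23 for Il11, -0.004 for Lif, -0.69 for Il7 and 3.75 for Tslp. These differences have the sign of the full comparison for all 6 genes, although that of Lif is too small for its sign to be read. They rest on 1 array, whose brightest spike-in read 2797, against 17164 to 30390 on the other arrays. Normexp background correction, run with an offset of 50 added to every signal, had the largest effect on size. The correction and the offset were not run apart. With normexp and an offset of 50, the difference of Il1a was -4.34 in clone 1 and -4.44 in clone 3, that of Tslp 1.74 and 1.92, that of Il11 0.54 and 0.49, that of Il7 -0.30 and -0.33, and that of Lif in clone 3 -0.20.

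Clone 3 minus clone 1 was -0.20 (SE 0.13) for Il18, -0.19 (SE 0.12) for Il11, -0.26 (SE 0.13) for Lif, -0.13 (SE 0.16) for Il7 and 0.19 (SE 0.20) for Tslp. The sign for Tslp turned to -0.06 without the first clone 3 array. The fitted difference of Il1a between the clones rests on background signals and is not given as an effect.

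The receptors of these cytokines were measured in the same cells. Over all 25353 genes and transcripts tested, clone 1 had 14.7% called higher and 16.5% lower, and clone 3 had 13.3% called higher and 17.0% lower. Of 18 receptor genes 12 could be tested. In each clone 2 were called higher and 4 lower, and the median difference was -0.15 in clone 1 and -0.07 in clone 3. Il1r1, the signalling receptor of interleukin 1, fell by 0.62 (SE 0.10, adjusted p = 0.0025) in clone 1 and by 0.88 (SE 0.12, adjusted p = 0.00084) in clone 3. Its partner chain Il1rap was not called, with differences of 0.05 and 0.25, and the decoy Il1r2 and the interleukin 33 receptor Il1rl1 were above background on no array. Sigirr, an inhibitory member of the receptor family, rose by 1.12 (SE 0.11) and 1.15 (SE 0.13), with adjusted p-values of 0.00016 and 0.00031.

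The 2 chains of the interleukin 18 receptor differed from the control in opposite directions. Il18r1, the ligand-binding chain, had log2 levels of -4.80, -5.10 and -4.66 in the control, all not well above background. Its levels were -3.09, -3.26 and -3.87 in clone 1 and -3.26 and -2.87 in clone 3, all above background. It was at least 2.60-fold higher in clone 1 (adjusted p = 0.0015) and at least 3.29-fold higher in clone 3 (adjusted p = 0.0011). Il18rap, the accessory chain, had levels of -2.83, -2.70 and -2.86 in the control and between -7.01 and -6.36 on the 5 knock-in arrays, none of them above background. It was at least 4.41-fold lower in clone 1 (adjusted p = 8.2e-07) and at least 4.23-fold lower in clone 3 (adjusted p = 2.6e-06). The p-values of both genes come from the fit of the measured signals, those at background included. Il18bp, which encodes the soluble inhibitor of interleukin 18 and was named after its values were seen, was not called, with differences of -0.21 and -0.09.

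Among receptors of the interleukin 6 type, the alpha chain Il6ra and the shared chain Il6st were not called, with differences of -0.08 and 0.20 in clone 1 and -0.26 and 0.12 in clone 3. Il11ra1, the interleukin 11 receptor, fell by 0.55 (SE 0.15, adjusted p = 0.022) and by 0.62 (SE 0.16, adjusted p = 0.022), and a close copy of this gene in the mouse genome could add to its signal. Osmr, the oncostatin M receptor, fell by 0.84 (SE 0.10) and by 0.91 (SE 0.11), with adjusted p-values of 0.00041 and 0.00057. Lifr and the interleukin 7 receptor chain Il7r were above background on no array. Crlf2, the TSLP receptor, was above background on all 8 arrays and was not called, with differences of 0.51 (SE 0.23, adjusted p = 0.13) and 0.47 (SE 0.25, adjusted p = 0.20).

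Of 19 other ligands of these types, 8 could be tested, and the interleukin 36 genes were above background on no array. In each clone 2 were called higher and 1 lower, with list medians of 0.08 in both clones. The shares over all tested are those given with the receptors. Clcf1, a ligand of the interleukin 6 family, rose by 0.58 (SE 0.12, adjusted p = 0.0066) in clone 1 and 0.72 (SE 0.13, adjusted p = 0.0044) in clone 3. Ciliary neurotrophic factor, Cntf, fell by 0.77 (SE 0.12, adjusted p = 0.0015) and by 0.68 (SE 0.13, adjusted p = 0.0054).

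Genes for the processing and release of interleukin 1 type cytokines were mostly lower where they were called. Of 13 that could be tested among 16, clone 1 had 1 called higher and 6 lower, and clone 3 had 1 called higher and 5 lower. The medians were -0.37 and -0.35, beside -0.05 and -0.04 over all tested. Like the other lists, this one was chosen with earlier results of these data known, so its direction is not independent evidence. The shares over all tested are those given with the receptors. Casp1, the caspase that cuts pro-interleukin 18, had levels of 0.43, 0.31 and 0.55 in the control, -1.47, -1.26 and -1.24 in clone 1, and -1.69 and -1.46 in clone 3. It fell by 1.75 (SE 0.12, adjusted p = 1.8e-05) and by 2.01 (SE 0.14, adjusted p = 2.0e-05). Gsdmd, whose product forms the pores through which these cytokines leave the cell, fell by 1.51 (SE 0.14) and by 1.39 (SE 0.16), and Gsdme, a related pore former, by 2.36 (SE 0.12) and by 1.92 (SE 0.13). Casp4, an inflammatory caspase, fell by 1.03 (SE 0.10) and by 1.35 (SE 0.11). S100a13, linked to the release of interleukin 1 alpha, rose by 0.92 (SE 0.14) and 0.65 (SE 0.16). The adaptor Pycard and the sensor Nlrp3, also named after their values were seen, were not called.

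Most signalling genes were not called, and the same holds over all genes and transcripts tested. There, 14.7% were called higher and 16.5% lower in clone 1, and 13.3% and 17.0% in clone 3. Of 26 signalling genes tested, clone 1 had 3 called higher and 3 lower, and clone 3 had 3 called higher and 1 lower. Their medians were -0.05 and -0.07. Irak1, a kinase downstream of MyD88, fell by 0.51 and by 0.52, and its 2 other tested probes were not called in either clone. Tollip, which dampens that kinase step, rose by 0.59 in both clones. Chuk and Tab3, of the kinase complexes that activate NF-kappa B, fell in clone 1 by 0.64 and by 0.43. In clone 3 their differences of -0.34 and -0.32 were not called. Jak3 rose by 0.63 and 0.57, and Cish, a feedback inhibitor of cytokine receptors, by 0.69 and 0.52. Among genes not called by their brightest probe, and named after their values were seen, a second probe was called for Stat5a, with differences of 1.45 and 1.31, and for Traf6, with 0.62 and 0.70.

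The lists held 18 tested transcription factors that act on these cytokine genes or downstream of them. Of these 18, clone 1 had 6 called higher and 7 lower, and clone 3 had 3 called higher and 5 lower. The medians were -0.19 and -0.29. Over all tested, 14.7% were called higher and 16.5% lower in clone 1, and 13.3% and 17.0% in clone 3. Nfkbiz, a nuclear cofactor of NF-kappa B that interleukin 1 induces, had levels of 0.42, 0.62 and 0.41 in the control, -1.20, -1.34 and -1.19 in clone 1, and -1.44 and -1.50 in clone 3. It fell by 1.72 (SE 0.11, adjusted p = 9.3e-06) and by 1.95 (SE 0.12, adjusted p = 1.1e-05). The NF-kappa B subunits Relb and Rel fell by 0.84 and by 0.57 in clone 1 and by 1.03 and by 0.79 in clone 3. AP-1 members went both ways: Fos rose by 2.07 (SE 0.22) and 1.51 (SE 0.24), while Fosl1 fell by 0.99 (SE 0.10) and by 0.42 (SE 0.11). Cebpd rose by 0.80 (SE 0.11, adjusted p = 0.00079) in clone 1. Its difference of 0.36 in clone 3 was not called (adjusted p = 0.052).

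Genes for mRNA decay and stability set how long cytokine transcripts last. Of 10 tested, 2 were called higher and 2 lower in each clone, close to the shares over all tested given above. Zc3h12a, which encodes the RNase Regnase-1, fell by 1.85 (SE 0.37, adjusted p = 0.0056) and by 1.96 (SE 0.41, adjusted p = 0.0080), and the 2 clone 3 arrays were far apart at -2.38 and -4.07. Zfp36l2 fell by 0.90 and by 1.09. Zfp36, which encodes tristetraprolin, a protein that promotes decay of cytokine mRNA, rose by 0.64 and 0.46. Rc3h2, a relative of roquin, rose by 0.49 and 0.35, and its other probe was not called.

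**Figure D3:**
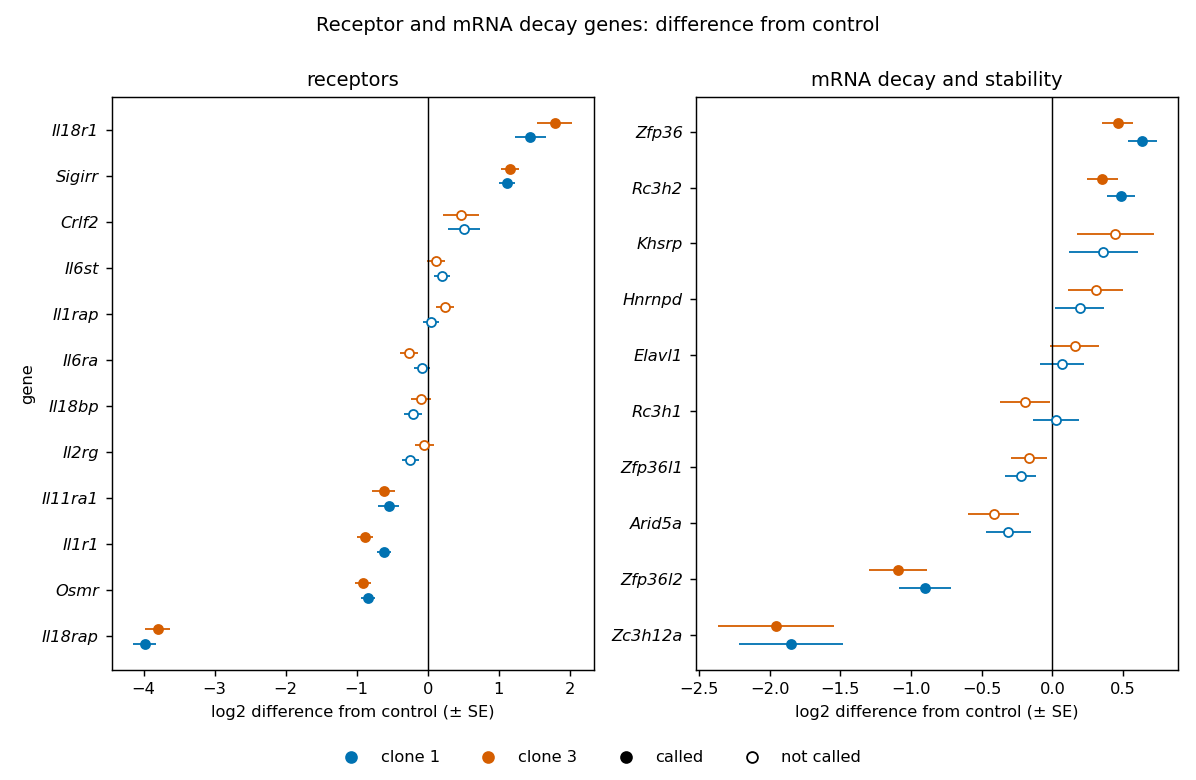
Log2 difference from the control (horizontal axis, with SE) for the tested receptor genes (left) and genes for mRNA decay and stability (right), in clone 1 (blue) and clone 3 (orange). Filled points passed an adjusted p of 0.05 in limma and open points did not. The horizontal scales of the panels differ. Il18rap lies lowest among the receptors and Il18r1 highest, and Zc3h12a lies lowest in the right panel.

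Genes that interleukin 1 is known to induce held the largest differences of the lists. Of 21 listed 17 could be tested, and in each clone 10 were called lower and 3 higher. The list medians were -1.06 and -1.18, and the shares over all tested are those given with the receptors. The list was drawn up with results of these data known, so its direction is not independent evidence. Ccl2, a monocyte chemokine, had levels of 3.25, 3.20 and 3.29 in the control, -3.23, -3.18 and -3.02 in clone 1, and -3.63 and -3.62 in clone 3. Its difference from control was -6.39 (SE 0.10, adjusted p = 2.2e-08) and -6.87 (SE 0.11, adjusted p = 3.2e-08). Every knock-in array lay far below every control array and still above background.

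The neutrophil chemokines Cxcl1 and Cxcl5 fell by 4.08 (SE 0.11) and by 4.21 (SE 0.17) in clone 1, and by 4.48 (SE 0.12) and by 5.22 (SE 0.19) in clone 3. Ccl20, a chemokine for lymphocytes and dendritic cells, fell by 4.40 (SE 0.21) in clone 1, where 2 of 3 arrays were above background, and was at least 24.5-fold lower in clone 3, where none was. Birc3, an NF-kappa B target that blocks cell death, fell by 2.31 (SE 0.20) in clone 1, with 1 of 3 arrays above background, and was at least 4.76-fold lower in clone 3. Csf2, which encodes GM-CSF, was above background in the control alone and was at least 1.35-fold and 1.29-fold lower. Lcn2, Sod2 and Ptgs2, named after their values were seen, were called higher in clone 1, by 0.73, 0.74 and 0.81, and Ptgs2 lost that call with the array row as a block (adjusted p = 0.10). In clone 3 Lcn2, Sod2 and Saa3 were called higher, by 0.89, 0.64 and 0.70, and all 3 lost that call with the block (adjusted p = 0.075, 0.16 and 0.12). Probes disagreed for Ptges, likewise named afterwards: its brightest probe was not called, with differences of -0.34 in both clones, while its 2 other probes fell by 3.06 and by 2.55 in clone 1 and by 3.13 and by 2.43 in clone 3.

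**Figure D4:**
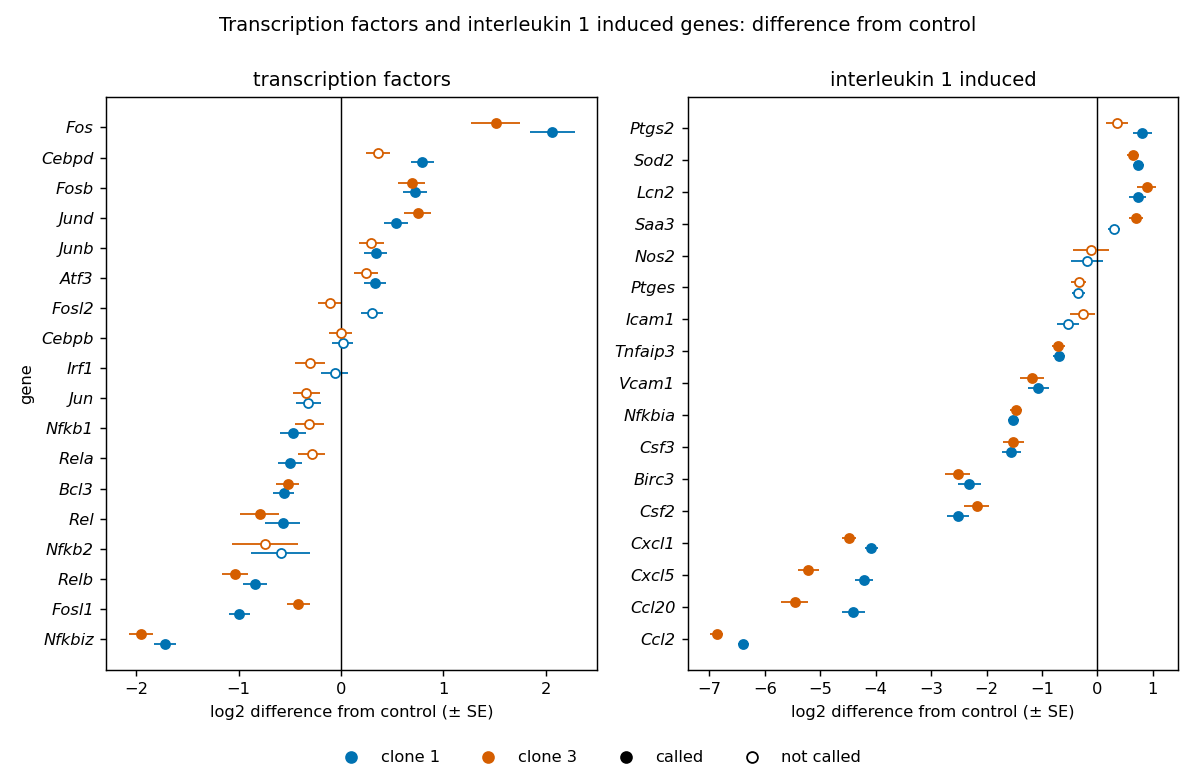
Log2 difference from the control (horizontal axis, with SE) for the tested transcription factors (left) and interleukin 1 induced genes (right), in clone 1 (blue) and clone 3 (orange). Filled points passed an adjusted p of 0.05 in limma and open points did not. The horizontal scales of the panels differ. Ccl2, Ccl20, Cxcl5 and Cxcl1 lie below -4 in both clones, and Fos lies highest among the factors.

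Over all 7 lists, 104 of 130 genes were tested. In clone 1, 19 were called higher and 33 lower, and in clone 3, 16 higher and 28 lower. The shares over all tested were 14.7% higher and 16.5% lower in clone 1, and 13.3% and 17.0% in clone 3. All 7 lists were chosen with earlier results of these data known, so these counts are not independent evidence. Both comparisons use the same 3 controls, so their likeness is not counted as support. With the array row as a block, 40 of the 52 calls in clone 1 and 22 of the 44 in clone 3 remained, and all 52 and 44 kept their sign. For clone 1, the difference with the block is that of the first clone 1 array from the mean of the same controls. That array also took part in the calls, so the kept signs are not separate support. The clone 3 calls that remained include Il1r1, Il18r1, Il18rap, Sigirr, Il11ra1, Osmr, Casp1, Casp4, Gsdmd, Gsdme, Nfkbiz, Relb, Ccl2, Cxcl1, Cxcl5, Ccl20, Birc3 and Csf2. Those lost include Cntf (block adjusted p = 0.11), S100a13 (0.15), Tollip (0.087), Cish (0.17), Fos (0.077), Fosl1 (0.20), Zfp36 (0.11), Rc3h2 (0.21) and Zc3h12a (0.12). Clcf1, Irak1, Jak3, Rel and Zfp36l2 lost their call in both clones with the block, and Chuk and Tab3 in clone 1.

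Between the clones none of the 104 genes was called by limma, and 12 had an unadjusted p under 0.05. Over all tested, 0.0749% were called between the clones. A missing call does not show that the clones are alike. Cxcl5, with differences from control of -4.21 in clone 1 and -5.22 in clone 3, was called between the clones when the first clone 3 array was left out, and Cxcl5 and Fosl1 were called with a variance trend and robust estimation.

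The genes whose levels ran most like each cytokine over the 8 arrays were picked by Pearson r among 13558 genes with a standard symbol. With 8 arrays in 3 groups, such an r mostly follows the group means, and it is given as a description. For Il1a they were Plb1 (r = 0.998), Cxcl1 (r = 0.998) and Mex3b (r = 0.997), which were lower in both clones. For Il18 they were Nbl1, Tbc1d23 and Atp6v1a (r from 0.998 to 0.999), and for Il11 they were Ghr, Mxd1 and Zfand2a (r from 0.997 to 0.999). For Tslp they were Scel, Ctsc and Lemd1 (each r = 0.998), with differences from control of 3.74, 5.21 and 5.76 in clone 1. The likeness was looser for Lif, with Dag1 (r = 0.964), Airn (r = 0.963) and Spata25 (r = 0.938), and for Il7, with Usp48 (r = 0.978) and Cep192 (r = 0.977).

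The nearest protein-coding genes on the array at each side of the 10 cytokine genes were looked up by a rule added after the cytokine values were seen. Of 18 such neighbours that are not cytokines of the set, 10 could be tested. In clone 1, 2 were called higher and 4 lower, and in clone 3, 2 higher and 3 lower. Over all tested, the shares were 14.7% higher and 16.5% lower in clone 1, and 13.3% and 17.0% in clone 3. Beside Il1a, Ckap2l fell by 0.41 in clone 1 (adjusted p = 0.015, or 0.13 with the array row as a block), and its difference of -0.25 in clone 3 was not called (adjusted p = 0.13). Beside Tslp, Gypc rose by 0.47 in clone 1 (adjusted p = 0.0099) and 0.45 in clone 3 (adjusted p = 0.020, or 0.11 with the block). Wdr36, also beside Tslp, rose by 0.57 in clone 3 (adjusted p = 0.012, or 0.35 with the block) and was not called in clone 1, at 0.22 (adjusted p = 0.22). Its 2 other probes were called higher in clone 1, at 0.37 and 0.34, and 1 of them was not called in clone 3. Zc2hc1a lies beside Il7, which was lower in both clones, and rose by 0.52 in clone 1 (limma adjusted p = 0.034, or 0.13 with the block). In clone 3 it was not called, at 0.02, but its other probe was called higher in both clones, at 0.79 in each. Next to cytokines at background, Psd4 beside Il1rn and Dnajb6 and Tyms beside Il6 were called lower in both clones. Beside Il18, Bco2 was not called, with differences of 0.40 and -0.20, and both neighbours of Il11 were below background.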

How the data were processed

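RNA of the 8 samples was hybridized to 1-colour Agilent arrays. The deposited processed signal is a background-subtracted fluorescence intensity on a linear scale, made by the authors. The submitters' processing notes name Agilent Feature Extraction, version 11.5.11. The file headers give the slide position and an older genome build than the RefSeq tables (GRCm38.p6) that were used for names and promoters, so no position was carried between them.

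Spots flagged as outliers (114 to 242 per array) were dropped, signals were converted to log2, spots of a probe were averaged and the array's 75th percentile was subtracted. The brightest probe stood for a gene. Testing required a gene to be well above background throughout 1 group or more. Tests used limma 3.58.1 in R 4.3.3 (one fit of 3 groups, eBayes, two-sided, Benjamini-Hochberg over 25353 features) and were tested on simulated data. The number of arrays limits precision.

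The 10 cytokines and the 7 gene lists were chosen with earlier results of these data known. Named are the cytokines, their receptor chains, Gtf2i, up to 6 called genes per list with the largest difference, pathway genes called between the clones, and 3 genes most like each tested cytokine. Others are marked. Some genes that this rule selects are not reported here. Genes without a standard symbol were left out of the likeness search. The interleukin 36 genes were matched through RefSeq synonyms. Alternatives were normexp, quantile and median scaling, 2 other filters, a variance trend, the mean over a gene's probes, the array row and leaving out each array.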

Additional observations from a re-analysis of the deposited data

How the results depend on the processing

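No cytokine difference from control changed its sign under any alternative run, and normexp gave the smallest sizes except for Lif in clone 1. Pathway calls in clone 1 numbered 52, against 31 with row 1 arrays only, and in clone 3 numbered 44, against 22 with the array row as a block. Over all features, 7896 were called in clone 1, against 4349 with that block and 3597 with row 1 only. In clone 3 7669 were called, against 2068 with the block and 5103 with no filter. Between the clones 19 were called, against 46 with normexp, 7 with no filter, 62 with a variance trend and robust estimation, and 0 in limma on row 2 arrays only, where 1552 had an unadjusted p under 0.05. That row 2 comparison was added after seeing the data. Leaving out each array in turn gave 8 (without the second clone 1 array) to 61 (without the first clone 3 array), and 35 without the second clone 3 array. Pathway calls between the clones numbered 0, against 2 with the variance trend, and ran from 0 to 1 with each array left out. The cause of these shifts was not tested. No paired analysis was possible because the labels give no replicate numbers, and the numbers used here only name arrays in accession order.

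No control lies in row 2, so the row block separates row and clone for clone 3 through the 3 clone 1 arrays alone. Each edited group is 1 clone. Signals near background limit Il1a in the clones, Tslp in the control, and Il1b, Il1rn, Il33 and Il6 throughout.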
